A study of Mus musculus with 12 samples.

Results

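The stretch and hypertrophy stress genes described here are 10 genes of heart and skeletal muscle, Ankrd1, Ankrd2, Xirp1, Xirp2, Enah, Acta1, Actc1, Fhl1, Csrp3 and Rcan1. They were chosen by name, with earlier results of these data known, and every array probe carrying 1 of these names was used. All 10 genes were found, on 11 probes (Enah had 2), among 34844 gene names on 55681 probes, and all 10 passed the filter on dim probes, which left 18030 genes on 24604 probes. The arrays measured left ventricular RNA, from the free wall and apex without the septum, of 12 mice aged 6 months with 4 hearts in each of 3 groups. All groups carried the floxed Nkx2-5 allele, and the mutants also carried a tamoxifen-inducible Cre driven by the Cx40 promoter. In TrbE10 hearts (labelled Nkx2-5Δtrab) tamoxifen was given to the mothers at E10.5 and E11.5, and in TrbE14 hearts (labelled Nkx2-5Δcomp) at E13.5 and E14.5. The controls were littermates without Cre according to the study's methods, while the sample labels call them not injected. Pups were fostered on CD1 females after surgical delivery. Cre acted in the Cx40 lineage, which includes trabecular muscle, the conduction system and arterial endothelium, so the mutant hearts were mosaics of deleted and undeleted cells.

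Muscle cells sense load at the sarcomere and the Z-disc that anchors it, and at the junctions where cells pull on each other. Proteins bound to these sites also act in the nucleus, and a set of genes encoding them is known to be induced when the ventricle is stretched or overloaded. Ankrd1 and Ankrd2 encode ankyrin repeat proteins that bind titin and can enter the nucleus, Xirp1 and Xirp2 encode actin-binding proteins of the intercalated disc, and Enah encodes an actin regulator of the same site. Acta1 and Actc1 encode the skeletal and cardiac actins, of which the skeletal form is a classical marker of the fetal programme. Fhl1 and Csrp3 encode LIM proteins of the sarcomere, and Rcan1 encodes an inhibitor of calcineurin whose own gene is induced by calcineurin and NFAT.

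Ankrd1 was the only gene of the 10 that passed the test at an adjusted p of 0.05, and it did so in both mutants. The promoter of Ankrd1 is shown because this gene carried the called change. RefSeq places the 250 bases before its start at chr19:36119845-36120094 of GRCm38.p6, on the minus strand, and the capitals mark the matched motifs.
Ankrd1: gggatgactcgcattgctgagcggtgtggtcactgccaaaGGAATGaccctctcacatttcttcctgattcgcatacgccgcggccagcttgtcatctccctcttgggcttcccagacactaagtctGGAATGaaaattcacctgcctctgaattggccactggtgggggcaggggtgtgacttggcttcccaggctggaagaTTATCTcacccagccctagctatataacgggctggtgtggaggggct
On both strands, 7 motifs were searched: the MCAT element CATTCC, bound by TEAD factors, the Nkx2-5 element TNAAGTG, the NFAT core GGAAA, the GATA motif AGATAA, the AP-1 motif TGANTCA, the CArG box bound by SRF, and the MEF2 site. The Ankrd1 window held 2 MCAT matches on the opposite strand, at positions -210 to -205 and -123 to -118 from the start, and 1 GATA match at -47 to -42, and no matched motif overlapped another. An MCAT match was present in 12.6% of 32851 promoter windows of the same length and a GATA match in 9.99%. Of the 9 genes with a window in the table, 2 held an MCAT match, 3 a CArG box (1.47% of all windows), 4 an NFAT core (55.6%), 2 an AP-1 match (6.75%), 1 a MEF2 site (2.92%), 1 a GATA match and 1 an Nkx2-5 element (10.1%). Fhl1, Csrp3 and Rcan1 had 2 windows each, and a match in either counted, while the percentages are over single windows. The CArG boxes were in the windows of Acta1, Actc1 and Fhl1, and the MEF2 site was in that of Xirp2. These matches describe letters only.

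The arrays were on 2 slides, with all control and TrbE14 arrays on slide 1 and all TrbE10 arrays on slide 2, so that slide and TrbE10 cannot be told apart, while TrbE14 and control were compared within 1 slide. Correlations between arrays ranged from 0.968 to 0.9899. The signal of Nkx2-5, the deleted gene, was below every control heart in all 8 mutant hearts. It was 0.66 lower on the log2 scale in TrbE10 (SE 0.14, adjusted p = 0.0459) and 0.59 lower in TrbE14 (SE 0.14, adjusted p = 0.106). In this bulk tissue, fewer cells of a type and less RNA per cell cannot be told apart. All 8 ventricular cardiomyocyte markers were measured, with 0 called in either mutant, and their summed signal was 911258 to 995494 in control, 946353 to 1003740 in TrbE10 and 900303 to 976579 in TrbE14 hearts. The sum is made up mostly by the brightest probes, whose values quantile normalization nearly fixes (Myl3 had an SD of 0 in TrbE10 hearts). A steady sum was therefore largely set in advance. Ryr2 (-0.41, adjusted p = 0.0919) and Actn2 (-0.19, adjusted p = 0.263) lay wholly below the controls in TrbE10 hearts. So did Myh6 in TrbE14 hearts (-0.21, adjusted p = 0.332). Over all genes 5.62% and 5.42% lay wholly below them.

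Ankrd1, read from a probe at chr19:36186809-36186868 of mm9, had log2 signals of 14.44, 14.76, 14.65 and 14.94 in the 4 control hearts. In TrbE10 hearts the signals were 15.77, 15.36, 15.81 and 15.78. In TrbE14 hearts they were 15.65, 15.55, 15.66 and 15.41. Every mutant heart was above every control heart, and the highest control heart was below the lowest mutant heart of either group. The signal was 1.98-fold higher in TrbE10 than in control hearts (0.99 on the log2 scale, SE 0.13, adjusted p = 0.00396, exact permutation p = 0.0286). It was 1.83-fold higher in TrbE14 hearts (0.87, SE 0.13, adjusted p = 0.0135, exact permutation p = 0.0286, the smallest p that 4 against 4 allows). Without control heart 3 the TrbE14 difference was 0.85 with an adjusted p of 0.0503. TrbE10 and TrbE14 hearts differed by 0.11 (95% confidence interval -0.18 to 0.40, adjusted p = 0.964).

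The 10 genes were chosen with earlier results of these data known, so the shares below are no independent test of them. The call of Ankrd1 made 1 of the 10 genes called higher in each mutant. Over all genes, 1.28% were called higher in TrbE10 and 0.532% in TrbE14 hearts, and 0.649% and 0.128% were called lower. Xirp2 was the other gene whose mutant and control hearts did not overlap, in both mutants. Over all genes 4.94% lay wholly above the controls in TrbE10 hearts and 4.65% in TrbE14 hearts, against 2 of the 10 stress genes in each, and 5.62% and 5.42% lay wholly below them, against 0 of the 10. An unadjusted p under 0.05 was reached by 4 of the 10 in TrbE10 and 2 of the 10 in TrbE14 hearts, beside 16.8% and 13.9% of all genes. In TrbE10 hearts 8 of the 10 were higher and 2 lower, with a median change of 0.45 on the log2 scale beside -0.02 over all genes. In TrbE14 hearts all 10 were higher by estimate, with a median of 0.31 beside -0.03. Xirp1 and Csrp3 were higher there by only 0.01 each. Their estimates became negative under another scaling (-0.060 and -0.079) and under normexp background correction, so the shared direction of all 10 depended on the processing. Of all 18030 genes, 8158 had an estimate above control in TrbE10 and 7962 in TrbE14.

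**Figure D1:**
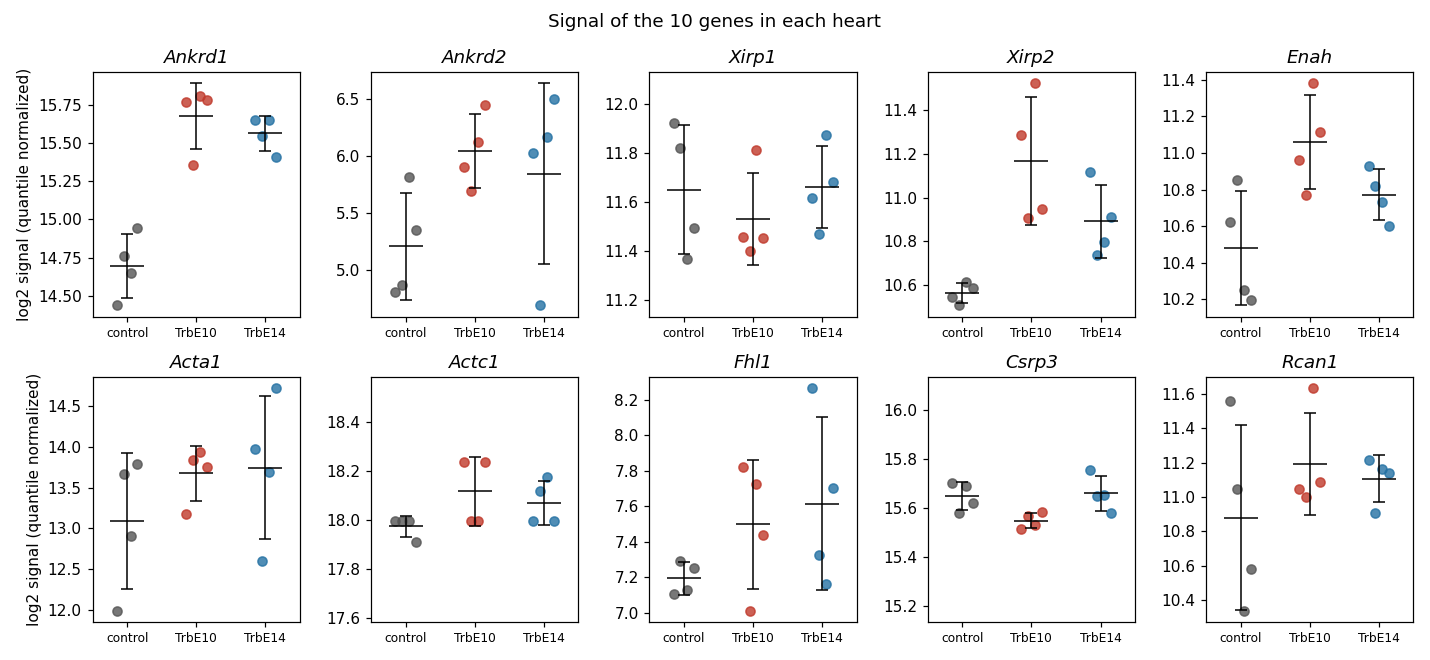
Log2 signal (quantile normalized) of the 10 genes in each of the 12 hearts, with points for hearts and the black line and bars for the mean and SD of 4 hearts; each panel has its own vertical scale of at least 1 log2 unit. The 8 mutant hearts of Ankrd1 lie between 15.36 and 15.81 and the controls between 14.44 and 14.94.

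**Figure D2:**
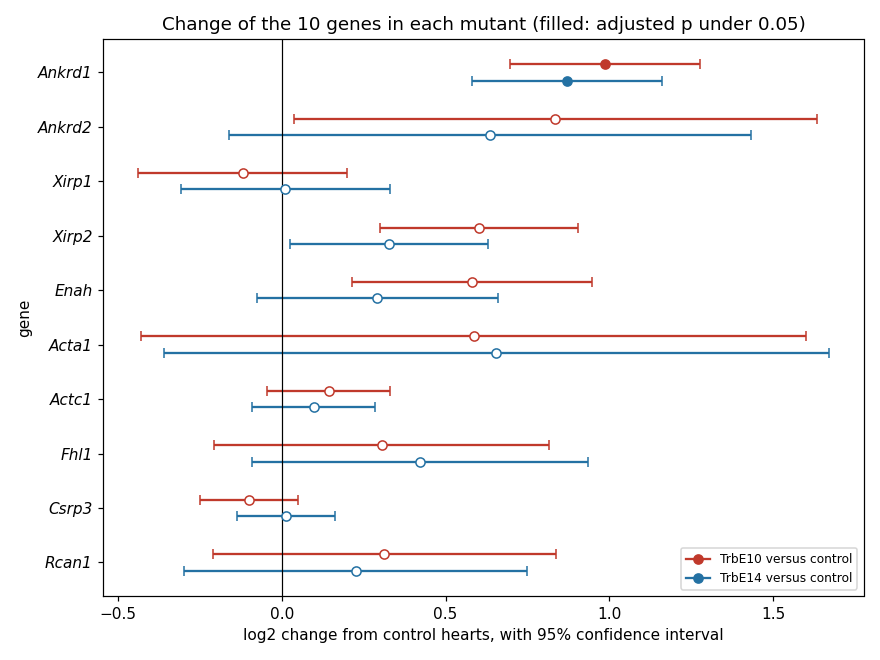
Log2 change from control hearts of the 10 genes with 95% confidence intervals, TrbE10 in red and TrbE14 in blue, filled where the adjusted p was under 0.05. Only the 2 intervals of Ankrd1 carry filled points.

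Among the other titin-binding proteins, Ankrd2 (probe at chr19:42118566-42118625 of mm9) had log2 signals of 4.80, 4.87, 5.81 and 5.35 in control hearts. It gave 5.90, 5.69, 6.12 and 6.45 in TrbE10 hearts, and 6.02, 4.69, 6.17 and 6.49 in TrbE14 hearts. In TrbE10 hearts 3 of 4 were above all controls, and TrbE14 heart 2, the only one of the 12 in which the probe was not well above background, was below all controls. The difference was 0.84 in TrbE10 (SE 0.36, adjusted p = 0.285) and 0.64 in TrbE14 hearts (SE 0.36, adjusted p = 0.457). Under normexp background correction these estimates were 0.34 and 0.18, and without TrbE14 heart 2 the TrbE14 estimate was 1.02, none of them called. Ankrd23, the third gene of the family, had 4 of 4 TrbE10 hearts above all controls, with a difference of 0.58 (SE 0.18, adjusted p = 0.136) and of 0.55 in TrbE14 hearts (adjusted p = 0.235).

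At the intercalated disc, Xirp2 (probe at chr2:67363961-67364020 of mm9) had log2 signals of 10.55, 10.51, 10.62 and 10.59 in control hearts. The signals were 11.28, 10.91, 11.52 and 10.95 in TrbE10 hearts. They were 11.12, 10.74, 10.80 and 10.91 in TrbE14 hearts. The control hearts had an SD of 0.05 on the log2 scale, and all mutant hearts lay above them. The difference was 0.60 in TrbE10 (SE 0.14, adjusted p = 0.0545, exact permutation p = 0.0286) and 0.33 in TrbE14 (SE 0.14, adjusted p = 0.334, exact permutation p = 0.0286). TrbE10 exceeded TrbE14 by 0.27 (95% confidence interval -0.03 to 0.58, adjusted p = 0.886). Without TrbE10 heart 2, Xirp2 in TrbE10 hearts was 0.69 higher with an adjusted p of 0.0277. That fit called 590 genes of the whole array in TrbE10 hearts, the most of any heart left out.

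Xirp1, the paralog of Xirp2 (probe at chr9:119923389-119923448 of mm9), had log2 signals of 11.92, 11.82, 11.37 and 11.49 in control, 11.46, 11.40, 11.81 and 11.46 in TrbE10, and 11.62, 11.47, 11.87 and 11.68 in TrbE14 hearts. All 3 groups overlapped, with differences of -0.12 in TrbE10 (95% confidence interval -0.44 to 0.20, adjusted p = 0.73) and 0.01 in TrbE14 (-0.31 to 0.33, adjusted p = 0.979).

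Enah was read from 2 probes, at chr1:183835644-183835703 and chr1:183834576-183834635 of mm9. The brighter gave log2 signals of 10.62, 10.85, 10.25 and 10.19 in control hearts, 10.96, 10.77, 11.38 and 11.11 in TrbE10 hearts and 10.93, 10.82, 10.73 and 10.60 in TrbE14 hearts. In TrbE10 hearts 3 of 4 were above all controls, with a difference of 0.58 (SE 0.17, adjusted p = 0.115), and in TrbE14 hearts the difference was 0.29 (SE 0.17, adjusted p = 0.459). The other probe gave smaller differences, 0.18 in TrbE10 (adjusted p = 0.601) and 0.09 in TrbE14 (adjusted p = 0.807).

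Acta1 (probe at chr8:126416197-126416256 of mm9) varied widely between hearts of a group. Control hearts gave 11.99, 13.66, 12.91 and 13.79, TrbE10 hearts 13.18, 13.84, 13.93 and 13.75, and TrbE14 hearts 13.98, 12.60, 13.69 and 14.71. The groups overlapped, since 2 controls were close to the mutant hearts. The estimates were 0.59 in TrbE10 (95% confidence interval -0.43 to 1.60, adjusted p = 0.571) and 0.65 in TrbE14 hearts (-0.36 to 1.67, adjusted p = 0.54). Leaving out 1 heart moved them between 0.22 and 0.82 in TrbE10 and between 0.29 and 1.04 in TrbE14, the lowest being without control heart 1 in both and the highest TrbE14 value without TrbE14 heart 2. The Acta1 probe lies in coding sequence, which the actins share in large part, and is shown for that reason; hybridization by other actin transcripts was not tested.
Acta1: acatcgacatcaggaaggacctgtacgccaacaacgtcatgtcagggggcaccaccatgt
The other actin probes of the array lay elsewhere in their transcripts, and the most similar, to Actg1, had 24 identical bases in an ungapped overlap of 58.

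Actc1, the actin of the working ventricle (probe at chr2:113873064-113873123 of mm9), was among the 6 brightest probes on every array, where quantile normalization left 5 distinct values at 3 decimals of log2. Control hearts gave 18.00, 18.00, 18.00 and 17.91, TrbE10 hearts 18.24, 18.00, 18.00 and 18.24, and TrbE14 hearts 18.00, 18.12, 18.18 and 18.00. The differences were 0.14 (adjusted p = 0.441) and 0.10 (adjusted p = 0.625). Scaled to the 75th percentile of each array instead, they were 0.05 and 0.02 (adjusted p = 0.84 and 0.935). Acta2, the smooth muscle actin, was 0.69 higher in TrbE10 (adjusted p = 0.376) and 0.75 higher in TrbE14 hearts (adjusted p = 0.39), and the summed signal of 5 smooth muscle markers, of which Acta2 is 1, was 40068 to 54262 in control, 42056 to 63626 in TrbE10 and 46748 to 77025 in TrbE14 hearts. The other markers differed by 0.02 and 0.83 (Cnn1), 0.01 and 0.76 (Tagln), -0.06 and 0.63 (Myh11) and -0.22 and -0.05 (Smtn), none called.

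Of the LIM proteins, Fhl1 (probe at chrX:54045353-54045412 of mm9) had log2 signals of 7.10, 7.29, 7.13 and 7.25 in control hearts, 7.82, 7.01, 7.72 and 7.44 in TrbE10 hearts and 8.27, 7.33, 7.16 and 7.71 in TrbE14 hearts. In each mutant 3 of 4 hearts were above all controls, and the mutant hearts spread more widely (SD 0.36 and 0.49) than the controls (SD 0.09). The differences were 0.30 (SE 0.23, adjusted p = 0.555) and 0.42 (SE 0.23, adjusted p = 0.446). Fhl2, its cardiac relative, was 0.38 lower in TrbE10 (SE 0.13, adjusted p = 0.17) and 0.13 lower in TrbE14 hearts (adjusted p = 0.657).

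Csrp3, the muscle LIM protein of the Z-disc, was read from a probe that spans an intron, at chr7:56086063-56087977 of mm9. Its signals were 15.70, 15.58, 15.69 and 15.62 in control, 15.52, 15.57, 15.53 and 15.58 in TrbE10 and 15.75, 15.65, 15.65 and 15.58 in TrbE14 hearts. In TrbE10 hearts 3 of 4 were below all controls, with a difference of -0.10 (95% confidence interval -0.25 to 0.05, adjusted p = 0.505), and in TrbE14 hearts it was 0.01 (-0.14 to 0.16, adjusted p = 0.95).

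Rcan1, the calcineurin inhibitor (probe at chr16:92392763-92392822 of mm9), gave 11.56, 11.05, 10.34 and 10.58 in control hearts, 11.05, 11.00, 11.63 and 11.09 in TrbE10 hearts and 11.21, 10.91, 11.17 and 11.14 in TrbE14 hearts. The controls spanned the range of nearly all mutant hearts, and the differences were 0.31 (SE 0.24, adjusted p = 0.553) and 0.23 (SE 0.24, adjusted p = 0.688). They were 0.13 and 0.04 without control heart 3, and 0.54 and 0.45 without control heart 1. Its relative Rcan2 differed by -0.07 and 0.03 (adjusted p = 0.789 and 0.932).

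Between the mutants none of the 10 genes was called by limma, with adjusted p-values of 0.886 to 0.992 and 0 of the 10 at an unadjusted p under 0.05. Over all genes 0 were called (0%) and 5.96% had an unadjusted p under 0.05. Within a group, hearts differed in how many of the 10 genes were above every control, 3 to 7 genes for TrbE10 hearts and 4 to 7 genes for TrbE14 hearts. TrbE10 heart 3 was highest of all 12 hearts for 4 genes, while TrbE10 heart 2 had 3 genes above all controls and 2 below them. These counts by heart were not made over all genes, so no share can be set beside them.

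**Figure D3:**
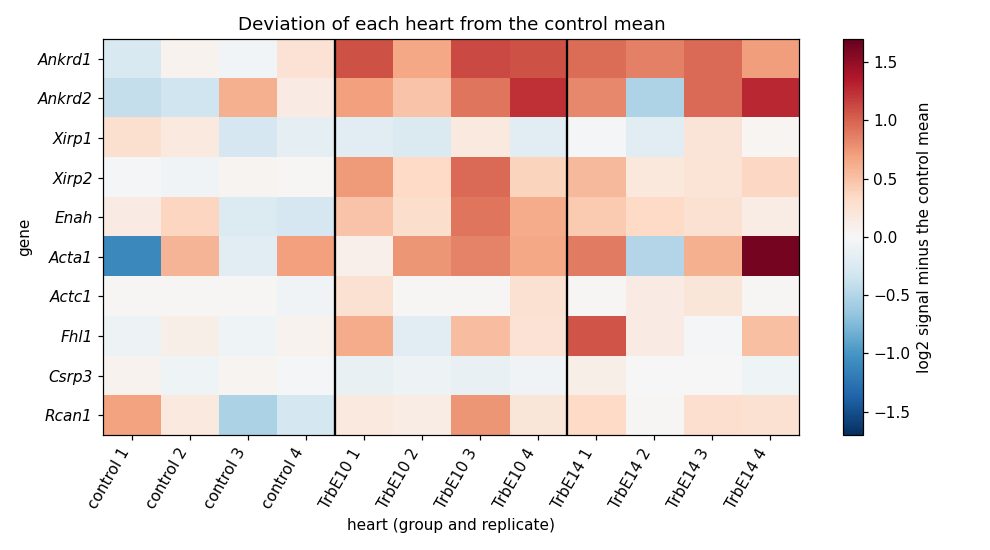
Log2 signal minus the mean of the 4 control hearts for the 10 genes (rows) in the 12 hearts (columns); red is higher and blue lower. The Ankrd1 row is red in all 8 mutant hearts, while Xirp1 and Csrp3 stay near the control mean.

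Around these genes, lists of related genes held 80 names, of which 77 were measured. Myh7, the slow myosin heavy chain of the fetal programme, was the only 1 of the 77 called, in both mutants. Array-wide, the called shares were 1.28% upward and 0.649% downward for TrbE10, and 0.532% upward and 0.128% downward for TrbE14. At such shares, a short list without a called gene does not differ clearly from the whole array, which holds for the lists below too. In TrbE10 hearts 4 of the 77 were called with sex as a covariate and 5 without TrbE10 heart 2. Totals over the whole array also moved, to 590 called genes without TrbE10 heart 2. They were 152 to 487 over the 9 alternatives that kept every heart, of which sex as a covariate is 1. Myh7 had log2 signals of 13.68, 13.30, 13.96 and 13.73 in control, 16.67, 15.88, 17.12 and 17.21 in TrbE10 and 15.88, 15.39, 17.06 and 16.17 in TrbE14 hearts. Neither mutant group overlapped the controls, with differences of 3.05 (SE 0.36, adjusted p = 0.00217) and 2.46 (SE 0.36, adjusted p = 0.0107), while the 2 mutant groups overlapped each other. Nppa, the atrial natriuretic peptide gene, differed by 2.07 (adjusted p = 0.0861) and 1.65 (adjusted p = 0.24), and Nppb by 0.52 (adjusted p = 0.557) and -0.19 (adjusted p = 0.847). The fetal and hypertrophy list, which holds Myh7, Nppa and Nppb, had medians of 0.67 and 0.10 over 10 measured genes. In each mutant 4 of these 10 had an unadjusted limma p under 0.05, beside 16.8% and 13.9% of all genes.

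The early stress response genes, transcription factors and regulators made within minutes of a stimulus, had 9 of 9 higher estimates in both mutants with 0 called, and medians of 0.37 and 0.90. Of all 18030 genes, 8158 had a higher estimate in TrbE10 and 7962 in TrbE14 hearts, with medians of -0.02 and -0.03. The estimates were 0.55 and 1.71 for Fos (adjusted p = 0.823 and 0.455), 0.50 and 1.77 for Fosb (0.892 and 0.574) and 1.06 and 1.28 for Gadd45g (0.464 and 0.424). Fos and Fosb were not well above background in control hearts 3 and 4 and in some mutant hearts, so the sizes of their differences rest in part on values near background. In TrbE14 hearts Fosb was 4.58, 4.98, 10.62 and 7.98, so that hearts 3 and 4 carried the estimate. Fos, Fosb and Gadd45g were all highest in TrbE14 hearts 3 and 4 and TrbE10 heart 4. Their estimates are therefore not separate observations. Of the SRF, MRTF and YAP pathway 0 of 14 were called, with medians of 0.03 and 0.11. In this list Ctgf, a YAP target, differed by 1.12 and 1.37 (adjusted p = 0.397 and 0.361), Cyr61 by 0.03 and 0.89 (0.99 and 0.559) and Myocd by -0.37 and -0.39 (0.385 and 0.402).

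Of the calcineurin and NFAT list 0 of 14 measured genes were called, with medians of -0.01 and -0.03. The largest estimates were those of Nfatc2 (0.24 and 0.34, adjusted p = 0.779 and 0.686), Mef2a (-0.24 and -0.18, 0.336 and 0.512) and Nfatc4 (-0.15 and -0.44, 0.83 and 0.489). Of the sarcomere stretch sensor complex 0 of 17 were called, with medians of -0.07 and 0.04. Capn3, a protease bound to titin, differed by -1.07 and -0.48 (adjusted p = 0.112 and 0.506), Mypn by -0.43 and -0.05 (0.413 and 0.944) and Trim55 by -0.39 and -0.48 (0.227 and 0.21), with all 4 TrbE14 hearts below all controls for Trim55. In TrbE10 hearts all 4 were below all controls for Ldb3 (-0.10, adjusted p = 0.623) and Ttn (-0.20, adjusted p = 0.237), a pair named after their values were seen. Of the 17, 2 in TrbE10 and 1 in TrbE14 lay wholly below the controls, beside 5.62% and 5.42% of all genes. In TrbE14 hearts Ldb3 went the other way (0.25, adjusted p = 0.271), with 3 of 4 hearts above all controls, and Ttn differed by -0.05 (adjusted p = 0.784). Of the 13 relatives of the 10 genes 0 were called, and Actg2 differed by -0.31 and 0.75 (adjusted p = 0.71 and 0.375).

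**Figure D4:**
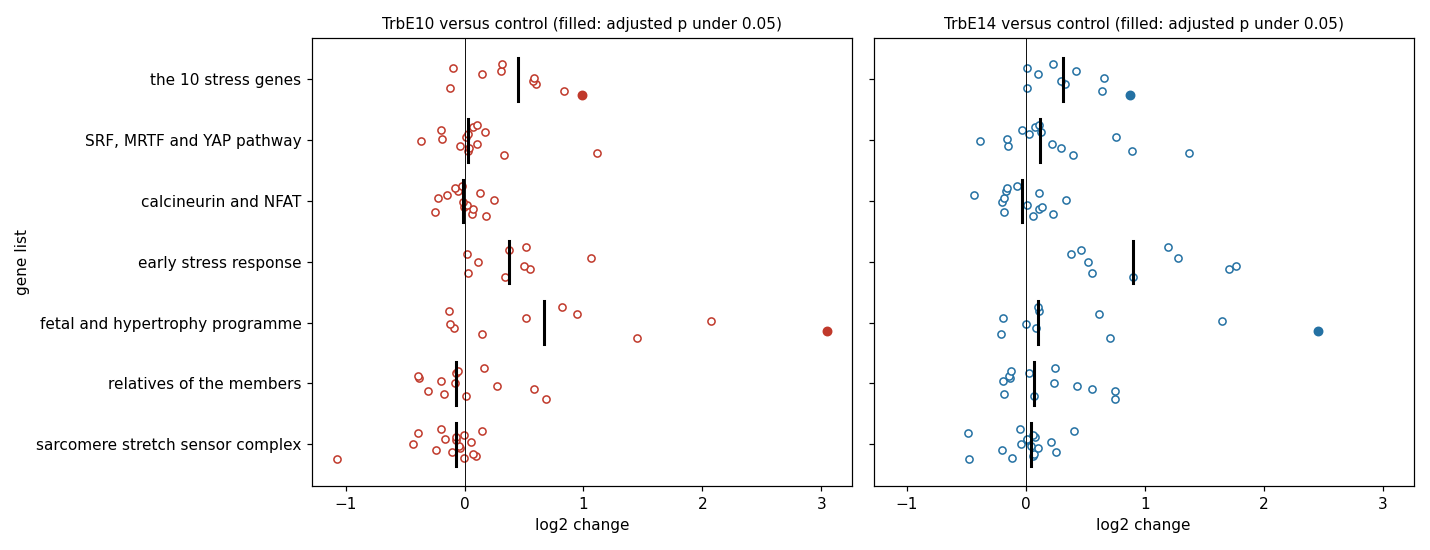
Log2 change from control hearts of the 10 stress genes and of the 6 lists of related genes, TrbE10 on the left and TrbE14 on the right, with a point for each gene, a black bar for the list median and filled points where the adjusted p was under 0.05. Apart from Ankrd1, only Myh7 is filled.

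Several of the 10 genes are also expressed in skeletal muscle, atrial muscle or other cells. Of 10 skeletal muscle markers 5 were measured, and Myh1, Myh2, Myh4, Mylpf and Actn3 were above background on 0 arrays. The summed signal of the measured markers was 30971 to 37120 in control, 21065 to 31288 in TrbE10 and 25570 to 35423 in TrbE14 hearts. Myh8, the brightest, weighed most in this sum (-0.36 and -0.24, adjusted p = 0.298 and 0.52). Atp2a1 differed by -0.13 and 0.16, Tnnt3 by -0.08 and 0.06 and Pvalb by -0.48 and -0.62, none called. Tnni2, the fast skeletal troponin I, was called lower in TrbE10 hearts (-1.38, adjusted p = 0.0194) and was -0.89 in TrbE14 hearts (adjusted p = 0.152), with all mutant hearts below all controls. The 5 atrial markers summed to 11951 to 68398 in control, 41358 to 159482 in TrbE10 and 77325 to 95590 in TrbE14 hearts, with 2 called higher in TrbE10 and 1 in TrbE14. Bmp10 was called in both mutants (4.27 and 4.45, adjusted p = 0.000253 and 0.000282). Sln was called in TrbE10 hearts only (3.80 and 3.33, adjusted p = 0.0177 and 0.0512), and Nppa in neither. The sum includes Nppa, while the atrial myosin light chain genes differed by -0.09 and 0.09 (Myl4, adjusted p = 0.968 and 0.964) and by -0.12 and -0.00056 (Myl7, adjusted p = 0.964 and 1). The 6 macrophage markers summed to 6877 to 8251, 13093 to 14917 and 11392 to 12354, with 2 and 1 called higher. The brightest, Csf1r, weighed most in this sum and was called in both mutants (1.14 and 0.92, adjusted p = 0.000112 and 0.000608). Cd68 was called in TrbE10 hearts only (0.60 and 0.26). The others differed by 0.57 and 0.33 (Cd14), 0.52 and 0.18 (Emr1), 0.72 and 0.72 (Cd163) and 0.19 and -0.06 (Mrc1), none called. The 6 fibroblast markers summed to 70803 to 79039, 88941 to 106738 and 92967 to 110518, with 1 called higher in each mutant. That 1 was Dcn, the brightest (0.39 and 0.50, adjusted p = 0.0377 and 0.019). Only Lum had a lower estimate, in TrbE14 hearts (-0.14). The 5 endothelial markers summed to 7013 to 7663, 7189 to 9455 and 7499 to 9464 with 0 called. Their part in the change of Ankrd1 was not tested.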

How the data were processed

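Scanner output of 12 one-colour Agilent arrays was used, with signals as linear intensity values after the background subtraction of Agilent Feature Extraction 10.5 in the files the authors deposited. The deposited log2 table, quantile normalized by the authors (22114 rows), served as an alternative. Control spots were removed from 62976 spots (3671), outlier spots were set to missing, log2 signals were quantile normalized, and repeated spots of the same probe were replaced by their mean. The filter kept probes that were well above background on at least 3 of 4 arrays of any group. In limma 3.58.1 in R 4.3.3 a linear model took a mean for each of the 3 groups (9 residual degrees of freedom), with Benjamini-Hochberg adjustment over 24604 probes; every adjusted p comes from limma. A gene was read from its brightest kept probe. Permutation tests were two-sided over all 70 label orders. Figures and motif searches used Python 3.11.15, matplotlib 3.10.9 and numpy 2.4.6.

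The 10 genes and the lists were chosen with earlier results of these data known. Genes named were the 10, and from the lists those called in any comparison, in each list the 2 with the largest change in each mutant, the nearest relatives Ankrd23, Acta2, Fhl2 and Rcan2, and Nkx2-5, Nppa, Nppb and Myh7. Cell type markers and the pair Ldb3 and Ttn were named outside this rule. The fit was tested on simulated data. The 75th percentile of the processed signal was 195 to 250 over the arrays, and precision is limited by having 4 arrays a group. The methods call the controls littermates, but litters are not tied to samples in the sources used here, and p-values measure the spread between these hearts. Alternatives were another scaling, normexp, filters, the authors' values, SAM, sex as a covariate, a replicate block, a fit of 2 groups and each heart left out. Sex was inferred from the signal of 2 Y-linked genes. By this measure 1 control heart, 2 TrbE10 hearts and 3 TrbE14 hearts were male, so sex was not balanced over the groups. A comparison of protein sequences was not made here.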

Additional observations from a re-analysis of the deposited data

Results flagged for a closer look

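Among 30 groups of 4 hearts (10 genes in 3 groups), 4 had a heart whose gap to its nearest neighbour, divided by the range of the group, was above Dixon's 95% critical value for 4 samples; chance gives about 1 in 20. Ankrd1 in TrbE10 hearts had a ratio of 0.911, with heart 2 at 15.36 below the others, and still above every control. Xirp1 in TrbE10 hearts had a ratio of 0.857, with heart 3 at 11.81 above the others. Rcan1 in TrbE10 hearts had a ratio of 0.865, with heart 3 at 11.63 above the others. Actc1 in control hearts had a ratio of 0.997, with heart 4 at 17.91 below 3 hearts that were all 18.00 to 2 decimals after quantile normalization.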

How the results depend on the processing

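Ankrd1 in TrbE10 hearts stayed called under every alternative run. With the 10 genes, 2 were called in TrbE10 hearts, Ankrd1 and Xirp2, under normexp (Xirp2 adjusted p = 0.0437), with the authors' values (0.0408) and with sex as a covariate (0.0111). Leaving out each heart gave 1 to 2 called in TrbE10 (2 without TrbE10 heart 2) and 0 to 1 in TrbE14 (0 without control heart 3). With a replicate block the 10 genes gave 1, 1 and 0 called as before, and Ankrd1 had adjusted p = 0.0236 and 0.047; the replicate numbers were not taken to pair hearts, since deviations of same-numbered hearts correlated from -0.243 to 0.079 between mutants and controls. Between TrbE10 and TrbE14 they correlated at 0.375, 0.309, -0.0082 and 0.476, with the own number highest for 3 of 4, a hint from the data and not from the design.

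Estimates near 0 changed sign. Actc1 between the mutants was -0.0043 under normexp. In TrbE14 hearts Csrp3 was -0.079 with scaling to the 75th percentile and -0.016 under normexp, and Xirp1 was -0.060, -0.035 and, with sex as a covariate, -0.011. Scaling to the 75th percentile without TrbE14 heart 2, chosen after seeing the data, gave -0.24 for Ankrd2 and -0.0096 for Rcan1 between the mutants and -0.068 for Csrp3 in TrbE14. Over hearts left out, TrbE10 minus TrbE14 ranged from -0.45 to 0.25 for Acta1, -0.19 to 0.42 for Ankrd2, -0.27 to 0.10 for Fhl1 and -0.06 to 0.15 for Rcan1, and TrbE14 minus control from -0.020 to 0.037 for Csrp3 and -0.084 to 0.10 for Xirp1. None of these was called, and the cause was not tested. The number of genes called over the whole array was 136 to 590 in TrbE10 and 67 to 159 in TrbE14 over hearts left out, and 590 was without TrbE10 heart 2. Slide could not be fitted as a block for TrbE10.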
